A study of Homo sapiens with 6 samples.

Results

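The comparison set the sorted cells of 2 metastatic derivatives of MDA-MB-231, taken as 1 group of 4 arrays, against those of the parental line, with 2 arrays, and asked which transcripts moved the same way in both. All 6 arrays of the series belong to it. MDA-MB-231 is an established human breast cancer line, triple-negative and mesenchymal in character. With 2 arrays each, 231BoM-1833 and 231BrM-2a are lines derived from it by selection in animals for growth in bone and in brain. Cells of all 3 lines were grown in the same medium, and magnetic sorting for surface markers kept those negative for CD24 and positive for CD44 and ESA, the protein that EPCAM encodes. Each derivative is a single line, so the 4 derivative arrays stand for 2 selections and not for 4. The labels call the replicates biological without saying that cultures or sorts were separate, so the p-values measure only how far these arrays spread, which may be technical.

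Serial passage through an animal enriches cells able to leave the blood, survive and grow in a given organ, and lines made in this way from one parent have been used to find genes tied to each organ. A change found in derivatives of different organs takes in what the selections share and also whatever separates the particular parental culture from both. Among the pathways met below, interferon signalling works through receptors and STAT and IRF factors that bind short repeated GAAA-type elements in the promoters of antiviral genes. The cancer-testis genes are normally silent outside the germ line, and many lie in copies on the X chromosome.

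Values are log2 expression per transcript cluster, the probe set that stands for a gene on this array, normalised together by RMA. The median per array lay between 6.58 and 6.64. Of 33297 clusters, 21214 carried a gene symbol and were tested, and 18418 symbols had a cluster of their own. A cluster was called when the limma test of 4 derivative against 2 parental arrays had a Benjamini-Hochberg adjusted p under 0.05. The spread in that test holds the difference between the derivatives, so it penalises a gene that moved in 1 of them. The transcripts of the sort markers did not pass: the change was -0.14 for CD44, -0.10 for CD24 and -0.04 for EPCAM (adjusted p = 0.793, 0.841 and 0.962). CD44 read 11.45 to 12.17 on the 6 arrays and EPCAM 7.28 to 8.32, while CD24 read 5.76 to 6.49, below every array's median. In bulk RNA, fewer cells of a type and less RNA per cell cannot be told apart, and RMA removes any change in total RNA.

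Both derivatives shared a small set of large changes. The pooled test called 36 clusters, 26 higher (0.123% of those tested) and 10 lower (0.0471%), and in all 36 both derivatives lay on the same side of MDA-MB-231 with no overlap between the 4 derivative and the 2 parental arrays. For scale, all 4 derivative arrays lay above both parental arrays in 11.4% of the clusters tested and below both in 19.0%. Counted once per symbol, 24 genes were higher (0.13%) and 6 lower (0.0326%). These 30 genes differed by 1.65-fold to 9.34-fold, and 19 of them by at least 2-fold in each derivative. The count rests on having both parental arrays: without replicate 1 or replicate 2 of MDA-MB-231 no cluster was called (limma, 2132 and 1367 at an unadjusted p under 0.05). It fell to 9 and 8 without replicate 1 or 2 of 231BoM-1833, and to 4 and 7 without replicate 1 or 2 of 231BrM-2a.

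**Figure D1:**
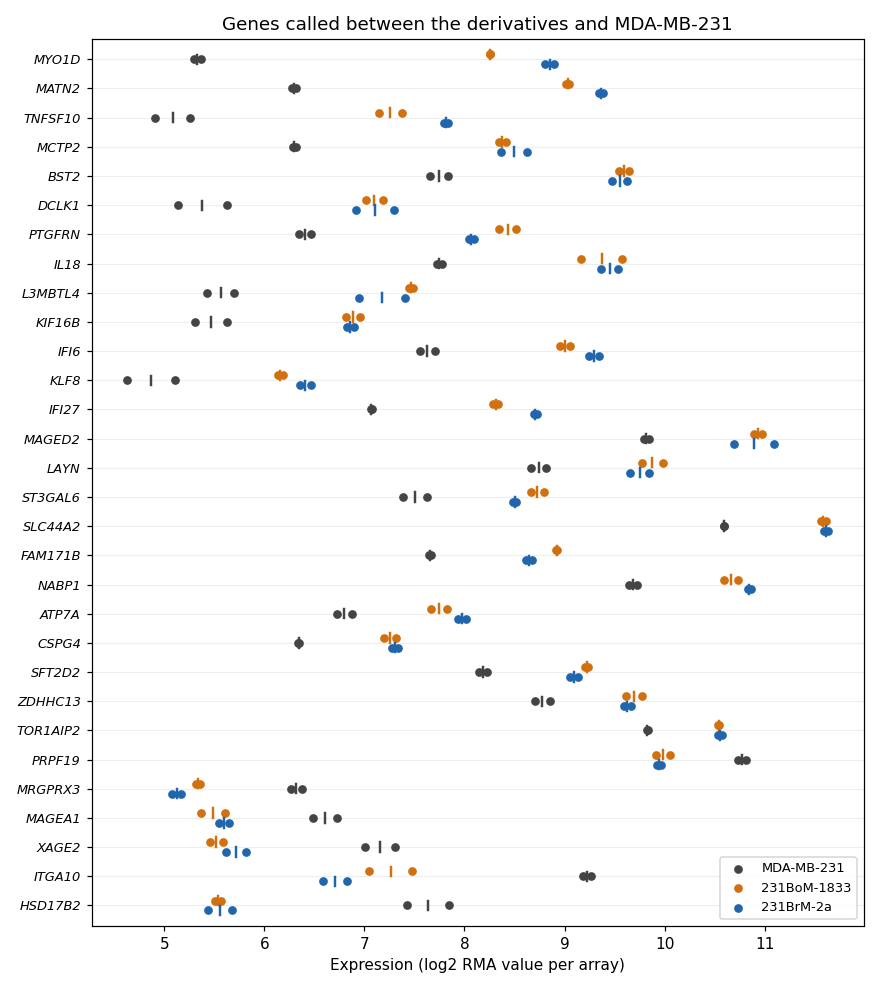
Expression (log2 RMA value, horizontal axis) of the 30 called genes on each of the 6 arrays; points are arrays, short bars the mean of each line's 2 arrays. MYO1D at the top runs from 5.33 on average in MDA-MB-231 to 8.55 in the derivatives, and HSD17B2 at the bottom from 7.64 to 5.55, with no overlap for any gene shown.

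A second, looser rule was added once the small number of calls had been seen. It took clusters that passed in both derivatives, each tested against MDA-MB-231 in 1 limma fit of the 3 lines, with the same sign. It held for 545 clusters higher (2.57%) and 423 lower (1.99%), or 493 symbols higher (2.68%) and 353 lower (1.92%). Both tests of a gene use the same 2 parental arrays, so a deviation of those arrays enters both. All 30 called genes passed this rule too, which adds no separate support because both rules use the same arrays. The 968 clusters became 386 without MDA-MB-231 replicate 1, 215 without its replicate 2, 503 and 468 without replicates 1 and 2 of 231BrM-2a, and 848 and 852 without those of 231BoM-1833. Most of the 968 clusters did not pass in every one of these refits, while those of the called genes did.

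**Figure D2:**
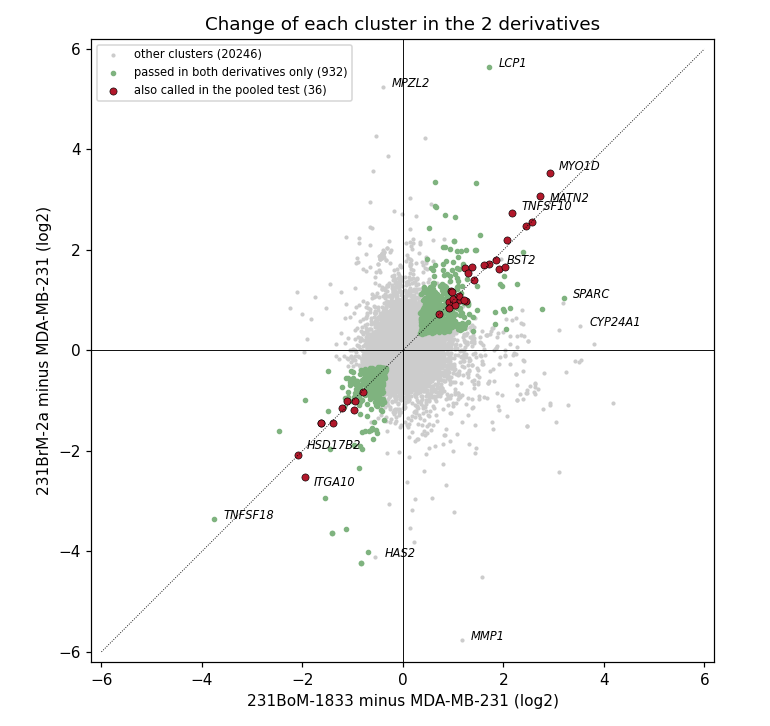
Log2 change of each of the 21214 tested clusters in 231BoM-1833 (horizontal) and 231BrM-2a (vertical) against the same 2 MDA-MB-231 arrays; the dotted line marks equal change. The 36 called clusters (red) lie near that line, the 932 that passed only in both derivatives (green) spread wider, and MPZL2, MMP1 and HAS2 lie far from it.

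The interferon-inducible genes were the largest group of shared increases that a list could name. Of 51 measured interferon-stimulated genes, 4 were called higher in the pooled test and 0 lower, and 16 rose in both derivatives (31.4%, against 2.68% of all symbols) and 0 fell. The median change over the list was 0.562, against -0.046 over all symbols. The 16 became 9 without MDA-MB-231 replicate 1, 7 without its replicate 2 and 9 with unnamed clusters added to the test, and lay between 12 and 15 without any single derivative array.

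The 4 called genes were BST2, IFI6, IFI27 and TNFSF10. Their promoters are printed here because the repeated GAAANNGAAA element, the form bound by IRF and STAT-containing factors, can be read in each. The stretches are the 250 bases before the transcript start, 5′ to 3′ on the gene's own strand, from RefSeq's GRCh38.p14 annotation: chr19:17405631-17405880 (minus strand) for BST2, chr1:27672193-27672442 (minus strand) for IFI6, chr14:94110486-94110735 (plus strand) for IFI27 and chr3:172523431-172523680 (minus strand) for TNFSF10. Capitals mark every match on either strand, and overlapping matches run together.
BST2: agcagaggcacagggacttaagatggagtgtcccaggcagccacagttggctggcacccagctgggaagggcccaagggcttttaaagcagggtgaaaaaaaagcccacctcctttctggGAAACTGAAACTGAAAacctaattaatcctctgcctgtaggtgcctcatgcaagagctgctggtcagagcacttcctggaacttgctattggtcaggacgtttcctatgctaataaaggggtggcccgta
IFI6: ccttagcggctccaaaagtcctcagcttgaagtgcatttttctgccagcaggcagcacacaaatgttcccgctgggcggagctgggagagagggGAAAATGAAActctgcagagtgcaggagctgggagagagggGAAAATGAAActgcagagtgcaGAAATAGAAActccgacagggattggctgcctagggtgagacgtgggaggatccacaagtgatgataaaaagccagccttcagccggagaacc
IFI27: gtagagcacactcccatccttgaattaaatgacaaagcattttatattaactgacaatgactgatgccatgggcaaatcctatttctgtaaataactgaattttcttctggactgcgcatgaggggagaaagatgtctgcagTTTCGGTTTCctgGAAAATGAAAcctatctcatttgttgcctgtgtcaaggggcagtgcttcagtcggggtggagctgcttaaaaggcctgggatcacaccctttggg
TNFSF10: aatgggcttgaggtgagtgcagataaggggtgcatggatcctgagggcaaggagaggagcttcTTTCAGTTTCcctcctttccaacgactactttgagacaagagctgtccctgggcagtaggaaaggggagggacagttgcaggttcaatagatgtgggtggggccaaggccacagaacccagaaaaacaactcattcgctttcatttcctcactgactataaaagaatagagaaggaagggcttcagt
BST2 had 2 overlapping matches that begin at -130 and -124, counted from the start. IFI6 had 3, at -156, -115 and -93. IFI27 had 1 on each strand, at -108 and -95, and TNFSF10 had 1 on the opposite strand at -187. Of 35116 promoter entries of 300 bases, 250 before and 50 after the start, 1255 (3.57%) held the element. Among the called genes with an entry, 5 of 20 higher genes held it, the fifth being FAM171B, and 0 of 3 lower genes did. In the interferon list 27 of 40 held it (67.5%). A match is a description of the letters and not a bound site.

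BST2, or tetherin, which holds budding virus particles at the cell surface, read 7.84 and 7.66 in MDA-MB-231, 9.55 and 9.64 in 231BoM-1833 and 9.48 and 9.63 in 231BrM-2a. The 4 derivative arrays lay close together, far above both parental ones. The change was 1.82 ± 0.10 (SE), or 3.54-fold (adjusted p = 0.00528), and the derivatives did not differ beyond their spread (adjusted p = 0.847).

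TNFSF10, which encodes the death ligand TRAIL and is itself induced by interferon, read 5.26 and 4.91 in the parental cells, 7.37 and 7.14 in the bone line and 7.79 and 7.83 in the brain line. It was low in the parent and higher on every derivative array, most in the brain line. The change was 2.45 ± 0.23, or 5.47-fold (adjusted p = 0.0229), with 4.52-fold in 231BoM-1833 and 6.63-fold in 231BrM-2a. IFI6, a small membrane protein that opposes cell death, went from 7.70 and 7.56 to 9.06 and 8.95 in the bone line and 9.34 and 9.24 in the brain line, 2.86-fold in the pooled test (adjusted p = 0.022). IFI27, a relative of IFI6, read 7.07 on both parental arrays, 8.34 and 8.29 in 231BoM-1833 and 8.72 and 8.70 in 231BrM-2a, a 2.71-fold change (adjusted p = 0.0416).

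The other 12 members that rose in both derivatives did not pass the pooled test. GBP2, a guanylate-binding protein of cell-intrinsic defence, had the largest change among them, at 5.52 and 5.72 in the parent, 7.17 and 6.99 in the bone line and 7.42 and 7.82 in the brain line (1.73 ± 0.23, pooled adjusted p = 0.0527). IFIH1, the double-stranded RNA sensor MDA5, rose by 0.97 in 231BoM-1833 and 1.59 in 231BrM-2a, and SAMD9L, which restricts viruses and growth, by 0.75 and 0.74. IRF9, the DNA-binding part of the factor ISGF3, rose by 0.56 and 0.43, IFITM3, which blocks virus entry, by 0.63 and 0.55, and PARP14, an ADP-ribosyltransferase, by 0.57 and 0.56. IFI44, OAS3, OASL, HERC5, HERC6 and SAMD9 completed the set, with OAS3 and OASL, enzymes of the 2′-5′ oligoadenylate family, larger in the brain line. Many classic members were not shared: IFIT1 changed by 0.13 in the bone line and 3.03 in the brain line, MX1 by 0.34 and 2.13, and ISG15 by -0.23 and 0.63. IFITM1 instead had the larger change in the bone line, at 0.96 against 0.098 in the brain line.

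Some genes of class I antigen presentation, which interferon also induces, rose as well. Of 13 measured, 3 rose in both derivatives (23.1%, against 2.68% of all symbols), 0 fell and 0 were called in the pooled test, with a median change of 0.432. PSMB9, a catalytic subunit of the immunoproteasome, read 9.38 and 9.25 in MDA-MB-231, 10.41 and 10.27 in 231BoM-1833 and 9.99 and 10.09 in 231BrM-2a (0.88 ± 0.14, pooled adjusted p = 0.0757). Its partner PSMB8 rose by 1.15 and 0.43 and differed between the derivatives (adjusted p = 0.00295). ERAP2, an aminopeptidase that trims peptides, rose by 0.44 and 0.42. Without either parental array or either 231BrM-2a array, 1 member of the 3 was left. Of 10 members of the class II list, 1 rose in both (10.0%, against 2.68% of all symbols) and 0 fell. That gene was CTSS, of a lysosomal protease, higher by 1.83 in the bone line and 0.76 in the brain line. The derivatives differed in CTSS (limma, adjusted p = 0.00152). It did not pass in both without MDA-MB-231 replicate 2 or without 231BrM-2a replicate 1.

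The largest increase called in the pooled test lay in MYO1D, a class I unconventional myosin that links membranes to actin. It read 5.29 and 5.37 in the parental cells, 8.26 and 8.25 in the bone line and 8.90 and 8.81 in the brain line. The parental values were among the lower values of their arrays, and every derivative array lay between 8.25 and 8.90. The change was 3.22 ± 0.22, or 9.34-fold (adjusted p = 0.0108), with 7.59-fold in 231BoM-1833 and 11.5-fold in 231BrM-2a. MATN2, which encodes matrilin-2, an adaptor of filamentous matrix, read 6.27 and 6.31, then 9.05 and 9.01, then 9.35 and 9.38 in the same order. Its replicates nearly coincided in every line. The change was 2.90 ± 0.14, or 7.49-fold, and its adjusted p of 0.00481, shared with MCTP2, was the lowest of all clusters.

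MCTP2, a membrane protein with C2 domains, and DCLK1, a microtubule-bound kinase known as a marker of tuft and stem-like cells, changed by almost the same amount in both derivatives. MCTP2 went from 6.31 and 6.29 to 8.41 and 8.34 in 231BoM-1833 and 8.37 and 8.63 in 231BrM-2a, 4.40-fold overall. DCLK1 read 5.62 and 5.14 in the parent, 7.02 and 7.18 in the bone line and 6.92 and 7.29 in the brain line, a change of 1.72 ± 0.17 (adjusted p = 0.0296). Its fold was 3.29 in the bone line and 3.30 in the brain line. L3MBTL4, a chromatin reader with MBT domains, rose 3.39-fold, from 5.70 and 5.43 to between 6.95 and 7.49 (adjusted p = 0.0341).

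Several shared increases encode surface or secreted proteins. PTGFRN, an immunoglobulin-family partner of tetraspanins, read 6.46 and 6.35 in the parent, 8.51 and 8.35 in the bone line and 8.04 and 8.10 in the brain line (1.84 ± 0.15, 3.59-fold, adjusted p = 0.0196). IL18, a cytokine of the interleukin-1 family that is released after caspase cleavage, read 7.77 and 7.73, then 9.57 and 9.17, then 9.37 and 9.54 (1.66 ± 0.14, 3.16-fold, adjusted p = 0.0196). Both genes were more than 3-fold higher in each derivative.

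LAYN, a hyaluronan-binding membrane protein, rose 2.10-fold, and CSPG4, the cell surface proteoglycan NG2, rose 1.92-fold from 6.33 and 6.35 to between 7.20 and 7.34. ST3GAL6, a sialyltransferase that helps to make selectin ligands, rose 2.16-fold. SLC44A2, a choline transporter-like protein, read 10.60 and 10.59 in the parent and 11.56 to 11.64 on the 4 derivative arrays, a change of 1.01 ± 0.08 (adjusted p = 0.0196). ATP7A, the copper pump of the secretory pathway, rose 2.09-fold.

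The remaining called increases had varied roles. KLF8, a Krüppel-like repressor, read 5.10 and 4.62 in the parent, 6.18 and 6.14 in 231BoM-1833 and 6.35 and 6.47 in 231BrM-2a (2.68-fold, adjusted p = 0.0473). NABP1, a single-stranded DNA-binding protein of the SOSS repair complex, rose 2.10-fold, and MAGED2, a ubiquitously expressed member of the MAGE family, 2.14-fold. KIF16B, a kinesin that moves early endosomes, rose 2.66-fold (adjusted p = 0.0196). SFT2D2, ZDHHC13, a palmitoyltransferase, and TOR1AIP2, an activator of torsin at the endoplasmic reticulum, rose 1.96-fold, 1.84-fold and 1.65-fold. FAM171B rose 2.18-fold. TOR1AIP2 shows how tight the smallest call was: 9.83 and 9.82 in the parent, 10.55 and 10.54 in the bone line and 10.53 and 10.58 in the brain line. A further pair of called clusters carried the olfactory receptor pseudogenes OR2A9P and OR2A20P together, which cannot be told apart, and rose 5.90-fold and 5.55-fold.

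Fewer genes fell. ITGA10, a collagen-binding integrin chain, read 9.26 and 9.18 in MDA-MB-231, 7.04 and 7.48 in 231BoM-1833 and 6.58 and 6.83 in 231BrM-2a. Its change was -2.24 ± 0.24 (adjusted p = 0.0367), 4.71-fold lower on average and lowest in the brain line. HSD17B2, an enzyme that oxidises oestradiol to oestrone, read 7.84 and 7.43, then 5.57 and 5.51, then 5.44 and 5.68 (-2.09 ± 0.14, adjusted p = 0.0108). The fall was alike in size, 4.28-fold and 4.22-fold, in the bone and brain lines. PRPF19, a ubiquitin ligase at the core of the spliceosome, fell 1.75-fold from a high level, 10.74 and 10.82 in the parent against 9.91 to 10.06 on the derivative arrays (adjusted p = 0.0473). MRGPRX3, a receptor of the sensory neuron family, fell 2.13-fold, and a second cluster of the same gene fell 2.27-fold.

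Among cancer-testis antigens, every shared change was a decrease. Of 15 measured, 0 rose in both derivatives and 5 fell (33.3%, against 1.92% of all symbols), of which 2 were called in the pooled test, and the list's median change was -0.168. XAGE2 read 7.31 and 7.01 in the parent, 5.46 and 5.58 in the bone line and 5.62 and 5.82 in the brain line (-1.54 ± 0.14, adjusted p = 0.022), with identical values on a second cluster. MAGEA1 read 6.73 and 6.49, then 5.36 and 5.60, then 5.55 and 5.65 (-1.07 ± 0.12, adjusted p = 0.0473). For both genes the derivative arrays all lay well below the parental ones.

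Besides these, 2 clusters shared by MAGEA3 and MAGEA6, which the probes do not separate, fell 1.97-fold and 2.67-fold in the pooled test (adjusted p = 0.0226 and 0.0196). CTAG2 fell by 0.45 and 0.44 in the bone and brain lines, and SSX1 by 0.81 and 1.62. SPANXB1 fell in both but unequally: it read 11.33 and 11.15 in MDA-MB-231, 10.48 and 10.32 in 231BoM-1833 and 6.75 and 7.25 in 231BrM-2a. The family's copies are near-identical, so the gene named may stand for several. The count of 5 became 2 without either parental array, and 3 without either 231BoM-1833 array, after removal of the dimmest 33.3% of clusters, or once unnamed clusters joined the test.

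**Figure D3:**
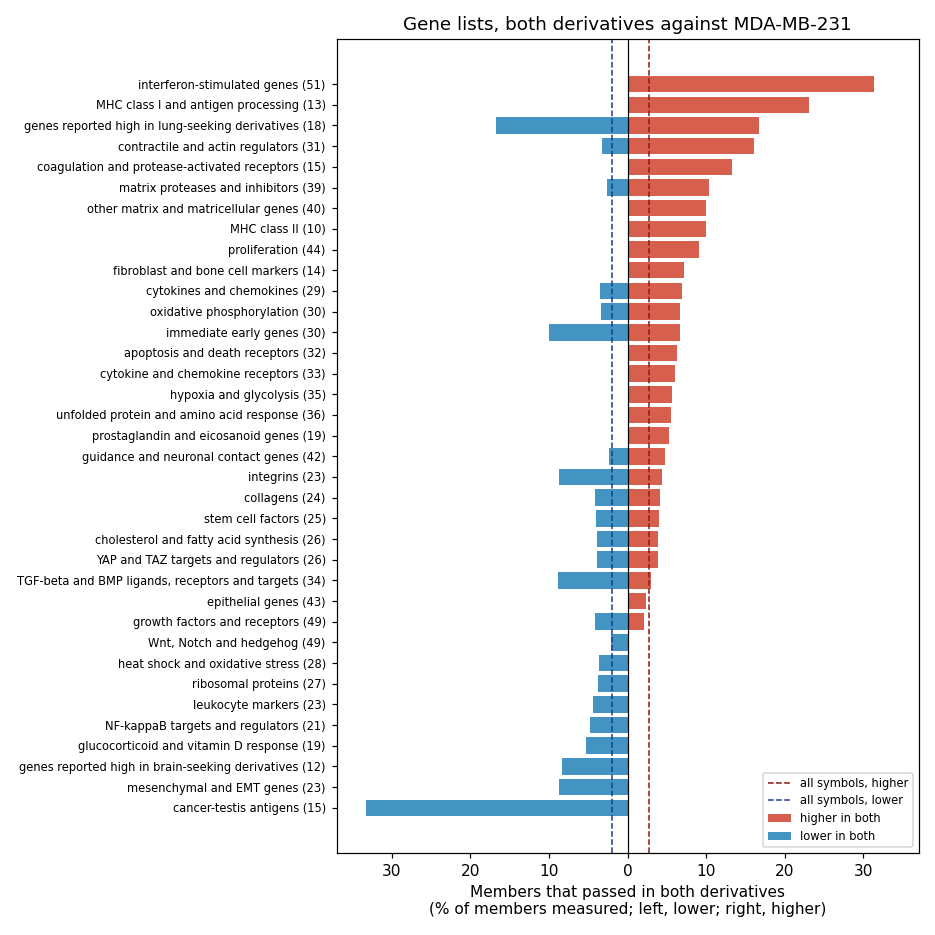
Share of measured list members (percent, horizontal axis) that passed in both derivatives, higher to the right and lower to the left, with the number measured after each name; dashed lines mark 2.68% and 1.92%, the shares over all symbols. Interferon-stimulated genes (31.4% higher) and cancer-testis antigens (33.3% lower) reach farthest; lists with no passing member or under 10 measured are not drawn.

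Actin and contraction genes included both shared and unequal increases. Of 31, 5 rose in both derivatives (16.1%, against 2.68% of all symbols) and 1 fell (3.23%, against 1.92%), and the median change was 0.211. Besides MYO1D, MYLK, the myosin light chain kinase, rose alike, from 7.48 and 7.45 to 8.10 and 8.12 in the bone line and 8.03 and 8.23 in the brain line (0.65 ± 0.09, pooled adjusted p = 0.0633). LCP1, the actin bundler L-plastin, rose in both by very different amounts, from 7.47 and 7.28 to 9.55 and 8.63 in 231BoM-1833 and 12.99 and 13.06 in 231BrM-2a. That is 3.29-fold and 50.2-fold, and the derivatives differed (adjusted p = 8.3e-06). TAGLN and CALD1, actin-binding proteins of smooth muscle, rose by 0.64 and 0.47 in the bone line and by 3.35 and 1.82 in the brain line. SRF, the transcription factor that controls many genes of this kind, fell by 0.49 and 0.46. This decrease did not pass in both without either parental array or without either 231BrM-2a array. Without MDA-MB-231 replicate 2, 2 of the 5 increases were left.

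Among 39 matrix proteases and inhibitors, 4 rose in both derivatives (10.3%, against 2.68% of all symbols) and 1 fell (2.56%, against 1.92%). The gene that fell was MMP2, by 0.50 and 0.45, the list's median change was 0.037, and none passed the pooled test. CTSV, a lysosomal cathepsin, read 6.11 and 6.01 in the parent, 7.58 and 7.63 in the bone line and 8.18 and 8.55 in the brain line (1.92 ± 0.28, pooled adjusted p = 0.0677). CTSK, the collagen-degrading cathepsin of osteoclasts, rose by 0.71 and 1.03, ADAM19 by 0.56 and 0.76, and PLAU, urokinase, by 1.23 and 0.50. The 4 increases became 1 without MDA-MB-231 replicate 2. MMP2 did not pass in both without either parental array, without 231BoM-1833 replicate 2 or without either 231BrM-2a array.

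Of 40 other matrix genes, 4 rose (10.0%, against 2.68% of all symbols) and 0 fell, with a median change of 0.098. LOX, which cross-links collagen, rose alike, from 10.85 and 10.91 to between 11.48 and 11.65, and its relative LOXL4 rose by 1.31 and 0.73. SPARC rose by 3.21 and 1.03 and TGFBI by 0.65 and 2.86, each led by a different derivative (adjusted p of the difference 0.000375 and 4.31e-06). Of these 4, 2 were left without MDA-MB-231 replicate 2. PAPPA, a protease that frees insulin-like growth factors, rose from 6.34 and 6.29 to 8.41 and 8.23 in 231BoM-1833 and 7.65 and 7.93 in 231BrM-2a (1.74 ± 0.21, pooled adjusted p = 0.0524). Of 24 collagens, COL8A1 rose in both and COL6A3 fell in both (4.17% each way, against 2.68% and 1.92% of all symbols).

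Among 29 listed cytokines and chemokines, 2 rose in both derivatives (6.9%, against 2.68% of all symbols) and 1 fell (3.45%, against 1.92%). IL18 and TNFSF10, described above as called higher, were not on this list. The chemokine CXCL16 rose by 0.41 and 1.27, and its fellow chemokine CCL20 rose 5.27-fold and 3.88-fold with wide replicates, 11.45 and 9.82 in the bone line and 9.74 and 10.64 in the brain line. Neither increase was left without either parental array or with unnamed clusters added to the test. TNFSF18, a ligand that engages the receptor GITR, had the largest shared decrease by size: it read 9.04 and 9.45 in MDA-MB-231, 5.07 and 5.90 in 231BoM-1833 and 6.96 and 4.81 in 231BrM-2a. The brain-line replicates stood far apart, and the pooled test did not call it (-3.56 ± 0.58, adjusted p = 0.0767). Each derivative passed in the fit of the 3 lines, but TNFSF18 did not pass in both with trend and robust options. EREG, an EGF-family ligand, fell by 1.49 and 1.20, and HHIP, which sequesters hedgehog ligands, by 1.55 and 2.94.

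In the TGF-beta and BMP list of 34 genes, 3 fell in both derivatives (8.82%, against 1.92% of all symbols) and 1 rose (2.94%, against 2.68%), while the median change over the list was 0.106, in the opposite direction to those 3. LTBP1, which holds latent TGF-beta in the matrix, read 11.53 and 11.39 in the parent, 10.25 and 10.48 in the bone line and 10.38 and 10.67 in the brain line (-1.01 ± 0.14, pooled adjusted p = 0.0556). The ligand TGFB1 fell by 0.51 and 0.56 and the receptor BMPR1B by 0.66 and 0.87, while the activin receptor ACVR2A rose by 0.36 and 0.64 and passed in 0 of the 6 refits that left out an array. Only 1 of the 3 decreases was left without either parental array or without 231BoM-1833 replicate 2. NOTCH1 fell by 0.58 and 0.57, the 1 of 49 genes on the Wnt, Notch and hedgehog list that fell in both (2.04%, against 1.92% of all symbols). HHIP, described above as lower in both, was not on this list. Of 23 mesenchymal genes, 2 fell in both (8.7%, against 1.92%) and 0 rose. They were ZEB1, a repressor of epithelial genes, by 0.44 and 0.54, and CDH11, by 0.63 and 1.59. Neither NOTCH1 nor these 2 genes passed in both when either parental array was left out.

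Other shared increases were spread over several lists. F3, tissue factor, rose by 0.78 and 1.32, and ANXA3 by 0.58 and 0.66, so that 2 of 15 coagulation-related genes rose (13.3%, against 2.68% of all symbols) and 0 fell. L1CAM, a neural adhesion molecule also found on tumour cells, rose by 1.07 and 0.93 (pooled adjusted p = 0.0524). MCAM, the adhesion molecule CD146, rose 2.43-fold and 2.66-fold. CLDN4, a tight junction protein, was the 1 of 43 listed epithelial genes that rose in both (2.33%, against 2.68% of all symbols), by 0.78 and 0.61. It did not pass in both without MDA-MB-231 replicate 2 or without 231BrM-2a replicate 2. Of 44 proliferation genes 4 rose in both (CENPF, BUB1, UBE2C and TOP2A, 9.09%, against 2.68% of all symbols) and 0 fell, and the list's median change was 0.044. All derivative arrays lay above both parental arrays in 8 members and below both in 8. The count of 4 became 1 without either parental array, without 231BoM-1833 replicate 1 or with unnamed clusters added, and 2 without either 231BrM-2a array.

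Among 30 immediate early genes, which respond fast to growth signals and stress, 2 rose in both derivatives (6.67%, against 2.68% of all symbols) and 3 fell (10.0%, against 1.92%), with a median change of 0.042. JUN and ATF3, transcription factors of the AP-1 and stress responses, rose by 1.14 and 0.98 in the bone line and by 0.41 and 1.08 in the brain line. MYC, the growth-promoting transcription factor, fell by 0.54 and 0.79, ETV4, an ETS factor, by 0.46 and 0.98, and SPRY4, an inhibitor of receptor kinase signalling, by 0.52 and 1.64. The count of 5 became 0 without MDA-MB-231 replicate 2 and 1 without its replicate 1 or with unnamed clusters added. It was 2 without either 231BrM-2a array and 3 without 231BoM-1833 replicate 2.

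Markers of other cell types that could have entered a sort or a culture moved little. Of 23 leukocyte markers, 0 rose in both and 1 fell (NKG7, 4.35%, against 1.92% of all symbols), and the list's median level lay between 5.25 and 5.53 on all 6 arrays. Of 13 endothelial, red cell and platelet markers and 15 neural markers, 0 passed in both derivatives, with median levels between 5.68 and 6.08 and between 5.58 and 5.92. Of 14 fibroblast and bone cell markers 1 rose (7.14%, against 2.68% of all symbols) and 0 fell. It was CTSK, also counted among the proteases. The list medians were 5.95 and 6.05 in the parent and 5.99 to 6.34 in the derivatives. Their part in the results was not tested.

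Lists published for lines of this same family are not independent evidence of a direction. Of the bone-seeking list's 10 genes, 0 passed in both, and of the brain-seeking list's 12 genes 1 did, LTBP1, lower (8.33%, against 1.92% of all symbols). Of 18 reported high in lung-seeking derivatives, 3 rose in both (SPARC, KYNU and NEDD9) and 3 fell (EREG, LTBP1 and MMP2). That is 16.7% each way, against 2.68% of all symbols higher and 1.92% lower. Some of these genes did not pass in every refit that left out an array. KYNU, an enzyme of tryptophan breakdown, rose from 8.31 and 8.33 to 9.70 and 9.55 in the bone line and 9.06 and 9.48 in the brain line. Of 4 reported low in brain-seeking derivatives, 1 rose in both, TNFSF10 (25.0%, against 2.68% of all symbols). Some genes had a large pooled change that rests on 1 derivative: MMP1 changed by 1.17 in 231BoM-1833 and -5.76 in 231BrM-2a, CYP24A1 by 3.52 and 0.48, MPZL2 by -0.40 and 5.24 and HAS2 by -0.55 and -4.11. The pooled test called none of them (adjusted p = 0.394 to 0.668).

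Placed in RefSeq gene order, the shared changes were not spread evenly, a pattern noticed after their values had been seen. In blocks of 50 consecutive measured genes, the median block had 1 gene higher and 1 lower in both derivatives. On chromosome 1, the 866 genes from the block after ITGA10's held 93 higher (10.7%) and 3 lower (0.346%), and the 1000 genes before held 16 (1.6%) and 19 (1.9%). That stretch includes the called genes SFT2D2 and TOR1AIP2, and the block with CENPF, DEGS1 and WDR26 held 12 higher and 0 lower. On chromosome 2, the block with KYNU, RND3 and GALNT5 held 13 higher and 0 lower, with a median change of 0.184 in the bone line and 0.338 in the brain line.

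On chromosome 16 the direction was the opposite. Its last 209 genes held 30 lower (14.4%) and 0 higher, and the block from LINC00917 to SPIRE2 held 12 lower, among them PIEZO1, CDT1 and ANKRD11, with median changes of -0.335 and -0.318 over all its genes. HSD17B2 lay in the block before it, with KARS1 and COX4I1. ITGA10 and PTGFRN, which moved in opposite directions, lay in 1 block of chromosome 1, each with genes that moved the same way. Blocks count measured genes and not bases, so genes of 1 block can lie far apart. With PTGFRN, IGSF3 of the immunoglobulin superfamily rose by 1.10 and 1.86, and POLR3C, PIAS3, RBM8A, LIX1L and POLR3GL fell with ITGA10, by 0.56 and 0.59 in RBM8A.

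**Figure D4:**
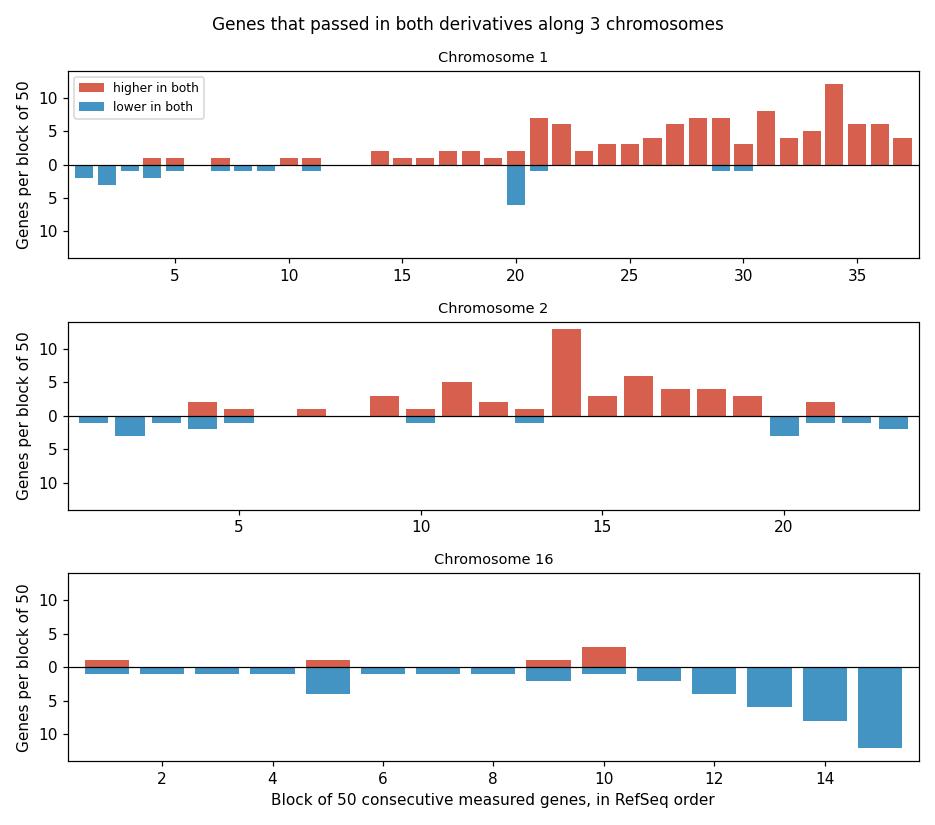
Genes that passed in both derivatives per block of 50 consecutive measured genes (higher upward, lower downward, counts) along chromosomes 1, 2 and 16 in RefSeq order. On chromosome 16 the block with PIEZO1 and ANKRD11 reaches 12 lower, and on chromosome 2 the block with KYNU 13 higher.

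Shared direction did not mean shared size. Among the 846 symbols that passed in both derivatives, the derivatives differed from each other in 172 (adjusted p under 0.05), 118 of them with the larger change in the brain line and 54 in the bone line. Among the 30 called genes, 6 differed: MYO1D, MATN2, TNFSF10, IFI27 and ITGA10 had changed more in 231BrM-2a and PTGFRN more in 231BoM-1833. At least 2-fold changes in both derivatives were found for 48 symbols higher and 10 lower.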

How the data were processed

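RNA of 6 samples, 2 per line, was measured on Affymetrix Human Gene 1.0 ST arrays. The deposited log2 values were made by the authors with RMA in Affymetrix Expression Console (background correction, quantile normalisation and probe summary), per the submitters' processing notes, which give no version. The value table was used whole; the sources used here do not name the array's genome build. The number of arrays limits the precision. Clusters were named from GEO's platform annotation (19461 with 1 symbol, 1753 with several, 12083 unnamed here); 19430 of the 19461 matched RefSeq's GRCh38.p14 gene table. A symbol on several clusters took the one with the highest mean.

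The main fit was limma 3.58.1 in R 4.3.3 (lmFit, eBayes without trend, two-sided, 4 residual and 2.64 prior degrees of freedom), with Benjamini-Hochberg adjustment over 21214 clusters; no p is adjusted over a list alone. A second fit with a mean per line gave each derivative's change and their difference. Named genes were the called single-symbol clusters whose arrays did not overlap (up to 18 per direction, then the rest), list members that were called or passed in both derivatives or had the largest change, cases resting on 1 derivative, and sort markers; genes of chromosome stretches and some list members were named after their values were seen. The comparison, its members and the 41 gene lists were chosen with earlier results of these data known, and the rule of passing in both derivatives after the first counts were seen. The scripts were tested on simulated data.

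Alternatives were a mean per line, a replicate block, all clusters, dim clusters left out (33.3%), trend and robust options, renewed quantile normalisation, median centring, each derivative alone, 1 cluster per symbol and leaving out each array. The labels do not say whether replicate numbers pair the samples. The deviations of replicate 1 from the line means correlated at 0.036, -0.162 and -0.165 between lines. A batch shared by replicate number was not tested otherwise. Promoters came from RefSeq.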

Additional observations from a re-analysis of the deposited data

Results flagged for a closer look

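For 6 called genes the derivatives differed from each other although both had moved the same way from MDA-MB-231 (limma, adjusted p of the difference between 231BrM-2a and 231BoM-1833). It was 0.00286 for MYO1D, 0.0381 for MATN2, 0.0191 for TNFSF10, 0.0192 for IFI27 and 0.029 for ITGA10, all with the larger change in the brain line, and 0.0419 for PTGFRN, with the larger change in the bone line. The genes whose pooled mean rests mostly on 1 derivative differed more clearly. The adjusted p was 4.8e-06 for MMP1, 3.35e-06 for HAS2, 2.67e-07 for MPZL2, 7.37e-06 for TAGLN, 1.84e-06 for SPANXB1, 4.45e-06 for UCA1, a long non-coding RNA, 6e-05 for CYP24A1, the vitamin D 24-hydroxylase, and 6.89e-06 for CCBE1, a secreted factor of lymphatic growth. UCA1 changed by 0.43 in the bone line and 4.22 in the brain line, and CCBE1 by -0.69 and -4.01.

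The L3MBTL4 value of 231BrM-2a replicate 2 stood apart: it read 6.95, and the other 3 derivative arrays 7.41 to 7.49. Its gap was 0.851 of the range of the 4 derivative arrays, above Dixon's critical value for 4 values. That was 1 of 38 genes looked at in this way, and chance alone flags a small share of such groups.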

How the results depend on the processing

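The pooled count of 36 clusters, all with a common direction, changed with most settings. A mean per line, which takes the difference between the derivatives out of the spread, called 3289 clusters, 2933 of them with both derivatives on the same side. With the replicate block, which leaves 3 residual degrees of freedom, no cluster was called (limma, 0, and 2653 at an unadjusted p under 0.05). The labels do not say whether replicate numbers pair the samples of different lines. Testing all clusters called 18, leaving out the dimmest 33.3% gave 21, and renewed quantile normalisation 68, with all 36 among them. 231BoM-1833 alone gave 2607 and 231BrM-2a alone 4751. Leaving out 1 array gave 0 to 9, and each parental array in turn leaves 1 array whose spread is assumed to be that of the other lines. Trend and robust options (39), median centring (40) and 1 cluster per symbol (35) stayed within 1.5 times. Of the 30 called genes, 30 stayed called with a mean per line, with renewed quantile normalisation and for each derivative alone, 28 with median centring, 26 with trend and robust options, 12 with all clusters and 17 of 25 bright enough without dim clusters; none changed sign under any setting. The 968 clusters that passed in both derivatives became 502 with all clusters tested, 735 with the replicate block, and 215 to 852 when 1 array was left out. The cause of these moves was not tested, beyond the fewer samples or other clusters each setting has. No background level came with the values, so dim genes may be at background and their folds compressed.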

Other observations

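Some shared changes lie outside the groups described so far. MAMDC2, a secreted protein with MAM domains, read 5.91 and 5.38 in MDA-MB-231, 7.46 and 6.73 in 231BoM-1833 and 9.09 and 8.86 in 231BrM-2a. SLCO1B3, an organic anion transporter best known from liver, rose 3.82-fold in the bone line and 2.51-fold in the brain line, and GALNT5, which starts mucin-type glycans, 4.84-fold and 2.50-fold. GSTM3, a glutathione transferase, rose 2.37-fold and 4.01-fold. These 4 genes passed in each derivative and not in the pooled test (adjusted p = 0.0678 to 0.187).

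Among the decreases of this kind, RGCC, a regulator of the cell cycle and of complement responses, fell 5.53-fold and 3.03-fold, and RAP1GAP2, which switches off the GTPase RAP1, 3.84-fold and 1.99-fold. DMBT1, a scavenger receptor of mucosal surfaces, and TFAP4, a helix-loop-helix transcription factor, fell by 1.01 and 1.16 in the bone line and by 1.01 and 0.95 in the brain line. GABRA3, a subunit of the GABA-A receptor, read 6.13 and 6.24 in the parent, 4.57 and 4.91 in the bone line and 4.31 and 4.13 in the brain line. RGS2, which dampens signalling through G proteins, fell 1.83-fold and 1.90-fold.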
